A study of Mus musculus with 8 samples.

Results

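The genes described here are 8 matrix metalloproteinases (Mmp2, Mmp3, Mmp7, Mmp9, Mmp10, Mmp12, Mmp13 and Mmp14), the aggrecanase Adamts4 and the metalloproteinase inhibitor Timp1. They were chosen by gene name, and each of the 10 names matched 1 annotated row among the 54715 annotated gene IDs of the files. RNA sequencing was run on colon tissue from the BALB/cA strain, either wild type or DCIR-/-, that is, without the product of Clec4a2, a C-type lectin of myeloid cells that carries an inhibitory signalling motif. Each genotype gave 1 library at each of 4 stages, so there were 8 groups of 1 library. The stages were untreated colon at steady state, colon on day 12 after dextran sulfate sodium (DSS, a polymer that injures the colon epithelium), and non-polyp colon and polyps on day 112 of the tumour protocol, which adds the carcinogen azoxymethane (AOM) to DSS. Both genotypes were sampled at each stage. The labels give the knockout as DCIR-/- with no further detail, and the age of the mice is not given in the sources used here.

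Matrix metalloproteinases are zinc enzymes, most of them made as inactive secreted precursors, that cut collagens, basement membrane proteins, cytokines and cell surface receptors. Tissue inhibitors of metalloproteinases, of which Timp1 is one, bind the active site of most of them. In the inflamed or tumour-bearing gut, Mmp7 and Mmp10 are mostly epithelial products, Mmp9 and Mmp12 are mostly made by neutrophils and macrophages, and Mmp2, Mmp3, Mmp13, Mmp14 and Adamts4 are mostly made by fibroblasts, which was the grouping used here.

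Of the proteases, 5 (Mmp7, Mmp10, Mmp3, Mmp12 and Mmp13) lie in 1 cluster on chromosome 9 (GRCm38, between positions 7272514 and 7699585), and the DNA just before their start sites is shown because the 3 genes with the largest differences between the wild-type polyp and non-polyp libraries (Mmp7, Mmp10 and Mmp13) are among them. The sequences are the 100 bases upstream of the RefSeq start on the plus strand of GRCm38.p6, with the AP-1 motif TGANTCA and the TATA motif TATAAA in capitals. AP-1 is the dimer of Jun and Fos family proteins through which interleukin 1 and growth factors are known to induce several of these genes.
Mmp7, chr9:7691990-7692089: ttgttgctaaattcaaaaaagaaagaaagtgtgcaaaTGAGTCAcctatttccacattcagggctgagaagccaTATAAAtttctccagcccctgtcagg
Mmp10, chr9:7502242-7502341: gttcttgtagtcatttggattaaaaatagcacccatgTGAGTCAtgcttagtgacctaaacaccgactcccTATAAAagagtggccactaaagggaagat
Mmp3, chr9:7445722-7445821: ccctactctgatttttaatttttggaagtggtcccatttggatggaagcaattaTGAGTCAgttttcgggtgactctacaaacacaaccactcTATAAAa
Mmp13, chr9:7272414-7272513: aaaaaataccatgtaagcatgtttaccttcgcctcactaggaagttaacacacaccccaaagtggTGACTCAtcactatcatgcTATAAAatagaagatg
Mmp12, chr9:7347274-7347373: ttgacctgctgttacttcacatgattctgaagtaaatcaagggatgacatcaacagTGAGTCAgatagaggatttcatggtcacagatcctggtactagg
The motif TGANTCA reads the same on both strands, and its first base stood 63 bases before the start in Mmp7 and Mmp10, 46 in Mmp3, 35 in Mmp13 and 44 in Mmp12. For Mmp12 this was the second of its 2 listed starts. Mmp7 also has a second listed start, whose window (chr9:7692241-7692340) holds neither motif. The table held 7 of the 10 genes. TGANTCA was present within 100 bases before a start in 5 of these 7, and in 3 of 12 other matrix metalloproteinase genes (Mmp1a, Mmp1b and Mmp20). Over all genes it was present at 2.73% of 32851 starts. The metalloproteinase system genes were counted per gene, with a match at any listed start, whereas the shares over all genes are per start. TATAAA on the gene's own strand was present in 4 of the 7 (Mmp3, Mmp7, Mmp10 and Mmp13), against 3.8% of all starts. It was also present in 4 of the 12 other matrix metalloproteinase genes (Mmp1a, Mmp1b, Mmp20 and Mmp21), so neither motif was particular to the genes described here. Each match is a description of these letters and not of a bound site.

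The same window of Mmp14 and of Timp1 is shown for contrast, since both genes were also highest in the polyps and knockout non-polyp and neither window holds TGANTCA or TATAAA.
Mmp14, chr14:54431498-54431597: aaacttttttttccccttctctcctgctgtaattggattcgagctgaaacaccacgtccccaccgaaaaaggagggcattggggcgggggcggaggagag
Timp1, chrX:20870066-20870165: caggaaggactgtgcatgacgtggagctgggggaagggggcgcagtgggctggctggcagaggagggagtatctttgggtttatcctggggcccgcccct
Both hold the GC box letters GGGCGG on 1 strand or the other, as do 24.7% of all starts.

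Several facts of the libraries touch every result. Aligned bases ran from 2.70 to 3.35 gigabases, and between 15959 and 16966 genes reached a level of 1 TPM (a transcript level corrected for gene length and library size). Clec4a2 was listed at 0 in 3 knockout libraries but at 0.659 TPM in the library labelled knockout at steady state, against 2.74 to 4.33 TPM in wild type. The steady-state and DSS libraries carried Ddx3y, a Y-linked gene, at 18.4 to 30.9 TPM and those of day 112 carried it at 0, so sex and day 112 cannot be told apart. The library labelled knockout non-polyp stood with the polyps in its markers: the summed level of 9 WNT target genes was 1823 TPM there, 1637 and 1507 TPM in the wild-type and knockout polyps and 60.8 TPM in wild-type non-polyp. The summed level of 8 smooth muscle markers was 747, 756 and 469 TPM in those first 3 libraries and 10514 TPM in wild-type non-polyp. Epithelial markers were present throughout, with 8 of 8 above 1 TPM and a sum of 10187 to 12778 TPM. In bulk tissue, fewer cells of a type and less RNA per cell cannot be told apart.

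Levels spanned 3 orders of magnitude among the 10 genes. Mmp7 had the highest TPM of the 10 in 7 of the 8 libraries, and in wild-type non-polyp, where it ranked 4th, Mmp14 was highest. Mmp12 was the lowest or next to lowest in every library, and Mmp2 and Mmp14 held ranks 1 to 5 throughout. The ranking of Mmp10 moved most, from 8th in wild type at steady state to 2nd in the wild-type polyp.

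**Figure D1:**
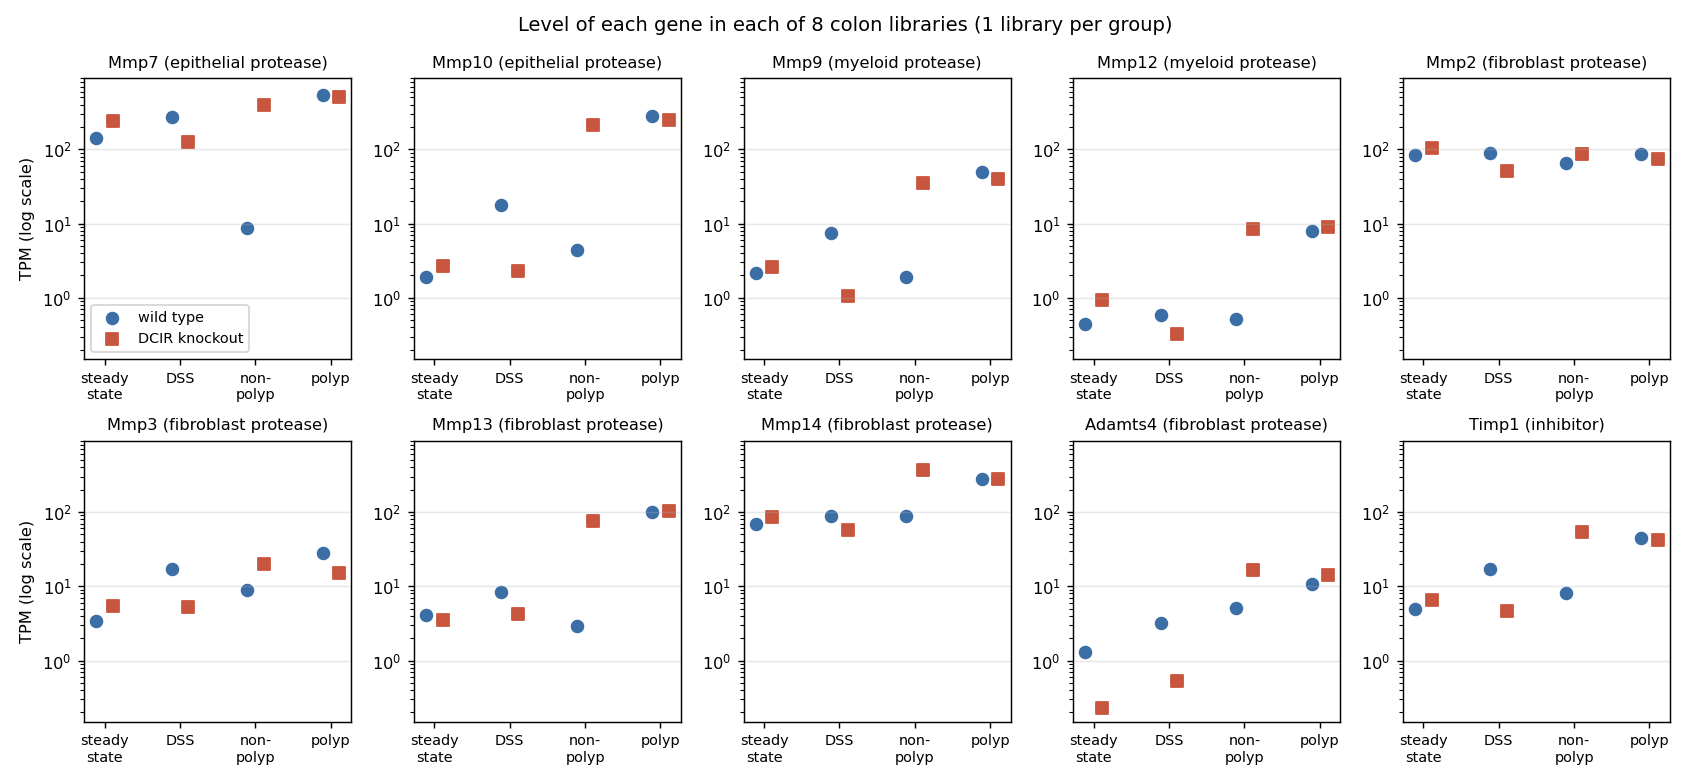
Level of each of the 10 genes (TPM, log axis) by stage, with wild type as blue circles and DCIR knockout as red squares, 1 library per point and therefore no error bars. In 8 of the 10 panels both polyp points lie above all 4 steady-state and DSS points, the exceptions being Mmp2 and Mmp3, and the knockout non-polyp point lies near the polyp points.

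Of the epithelial proteases, Mmp7 (matrilysin, which also activates defensins in the small intestine of mice; ENSMUSG00000018623, chromosome 9, 7692090 to 7699585) measured 142 TPM (wild type) and 239 TPM (knockout) at steady state, 274 and 124 TPM with DSS, 8.77 and 400.0 TPM in non-polyp colon, and 541 and 514 TPM in polyps, wild type first in each pair. Wild-type non-polyp was thus far below every other library. Mmp10 (stromelysin-2; ENSMUSG00000047562, chromosome 9, 7502352 to 7510240) stood, in the same order, at 1.88 and 2.68 TPM (steady state), 17.5 and 2.33 TPM (DSS), 4.40 and 215 TPM in non-polyp colon, and 282 and 250.4 TPM in polyps. The 2 polyp libraries and knockout non-polyp exceeded all others, and wild-type DSS came next. Mmp3 and Mmp10 are close paralogs, and whether the authors' counting could divide reads between them is not stated in the sources.

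The steady-state and DSS libraries also held RNA of male accessory glands, a tissue that may itself express Mmp7. The summed level of 10 gland markers was 3712 and 6145 TPM in the steady-state pair, 6716 and 4148 TPM in the DSS pair, wild type first, but 1.36 to 14.5 TPM at day 112, where 7 to 9 of the 10 markers were at 0. Pbsn (probasin, a prostate secretory protein) was at 0 in all 4 libraries of day 112. Across the 4 steady-state and DSS libraries Mmp7 itself ranged from 124 to 274 TPM, Mmp7 per summed gland markers from 0.0299 (knockout DSS) to 0.0408, and Mmp7 per Pbsn, a single marker picked after its values were seen, from 0.0646 to 0.0752. The gland markers did not move as one: in the knockout DSS library against the wild-type one, the seminal vesicle genes Svs2, Svs4, Svs5 and Svs6 and also Pate4 were higher, and Pbsn, Tgm4, Msmb and Defb50 were among those lower. The part of gland RNA in the Mmp7 level of these 4 libraries was not tested, and every Mmp7 difference that involves them is to be read beside these values. At day 112 gland markers were near 0, and Mmp7 per summed WNT target genes ran from 0.144 in wild-type non-polyp to 0.341 in the knockout polyp, so that Mmp7 and these WNT target genes were both low in wild-type non-polyp and both high in the other 3 libraries.

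**Figure D2:**
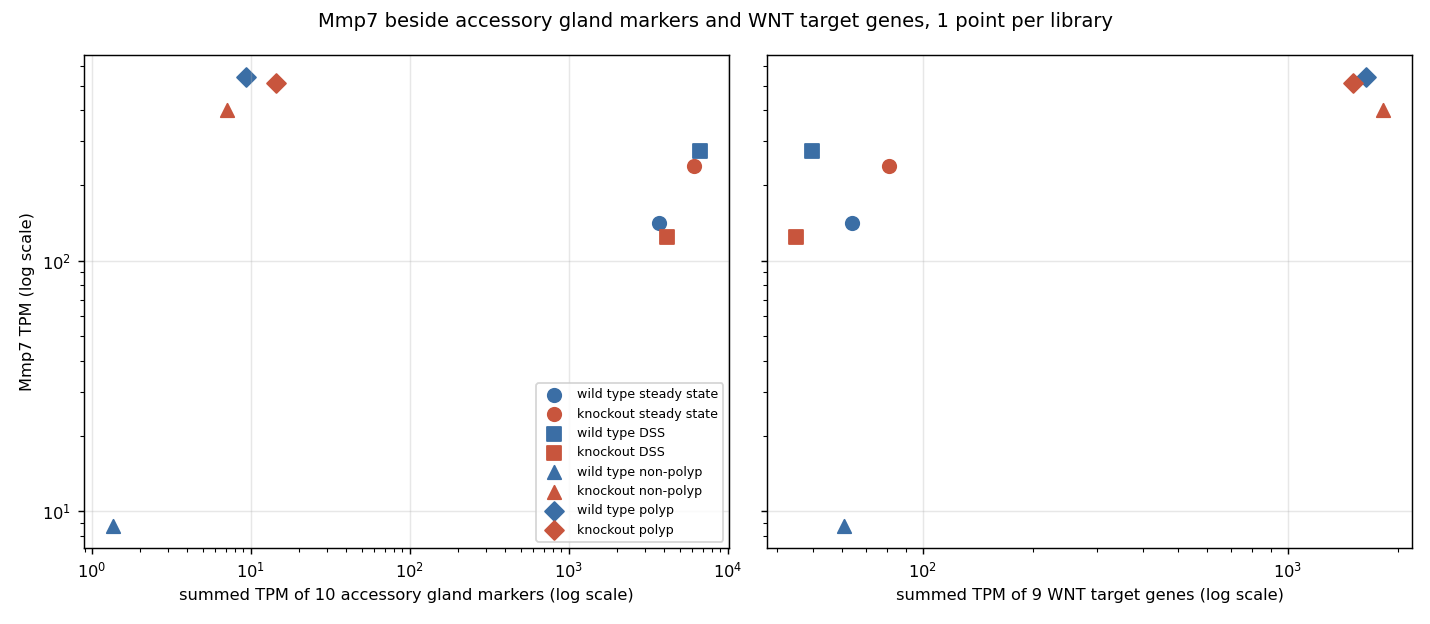
Mmp7 (TPM, log axis) against the summed TPM of 10 accessory gland markers (left, log axis) and of 9 WNT target genes (right, log axis), 1 point per library, colour for genotype and symbol for stage. On the left the 4 steady-state and DSS libraries lie at gland sums of 3712 to 6716 TPM and the 4 libraries of day 112 at 14.5 TPM or less; on the right the polyps and knockout non-polyp lie at WNT sums of 1507 to 1823 TPM.

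Of the myeloid proteases, Mmp9 (gelatinase B, stored in neutrophil granules; ENSMUSG00000017737, chromosome 2, 164940780 to 164955850) stood at 2.14 and 2.62 TPM at steady state, 7.50 and 1.07 TPM after DSS, 1.94 and 34.7 TPM in non-polyp colon, and 49.6 and 40.2 TPM in polyps, wild type first. Mmp12 (macrophage elastase; ENSMUSG00000049723, chromosome 9, 7344381 to 7369499) stood at 0.448 and 0.947 TPM, 0.584 and 0.330 TPM, 0.523 and 8.40 TPM, and 7.93 and 8.93 TPM at the same stages. Both were highest in the polyps and knockout non-polyp, but only Mmp9 was higher in wild-type DSS than in the steady-state libraries by more than 1 TPM. The summed level of 8 neutrophil markers was 5.01, 6.85, 236, 5.92, 51.5, 695, 520 and 502 TPM in the order of the libraries above. Mmp9 per summed neutrophil markers was 0.0317 to 0.0954 in the 5 libraries where that sum was above 50 TPM and 0.180 to 0.427 in the other 3. In those 5 libraries S100a8 and S100a9 made up most of the sum. Ngp and Camp were lower in knockout non-polyp than in wild-type non-polyp, while the other neutrophil markers were higher. The summed level of 10 macrophage markers moved far less, from 895 to 1704 TPM, whereas Mmp12 per summed macrophage markers was 0.000303 to 0.000621 in 5 libraries and 0.00465 to 0.00629 in the polyps and knockout non-polyp.

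Among the proteases assigned to fibroblasts, Mmp14 (membrane type 1 metalloproteinase, which activates the precursor of Mmp2; ENSMUSG00000000957, chromosome 14, 54431612 to 54445364) stood at 69.99 and 84.9 TPM at steady state, 89.6 and 57.5 TPM after DSS, 89.1 and 366 TPM in non-polyp colon, and 281.3 and 281.1 TPM in polyps, wild type first. Its activation target Mmp2 (gelatinase A; ENSMUSG00000031740, chromosome 8, 92827291 to 92853420) stood at 84.8 and 103.5 TPM, 89.8 and 50.6 TPM, 64.7 and 87.3 TPM, and 87.5 and 74.9 TPM at the same stages. Mmp2 thus kept within 50.6 to 103.5 TPM, its polyp levels lay inside the range of the steady-state and DSS libraries, and the Mmp14 levels of the polyps lay at least 3.14-fold above that range.

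Mmp13 (collagenase-3, the main interstitial collagenase of mice; ENSMUSG00000050578, chromosome 9, 7272514 to 7283331) stood at 4.08 and 3.48 TPM at steady state, 8.42 and 4.24 TPM after DSS, 2.96 and 76.6 TPM in non-polyp colon, and 99.7 and 102 TPM in polyps. Mmp3 (stromelysin-1; ENSMUSG00000043613, chromosome 9, 7445822 to 7455975) stood at 3.37 and 5.37 TPM, 16.9 and 5.24 TPM, 9.0 and 20.1 TPM, and 27.9 and 15.2 TPM at the same stages. Mmp13 separated the polyps from the steady-state and DSS libraries by at least 11.8-fold, whereas for Mmp3 the wild-type DSS level lay above the knockout polyp level.

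Adamts4 (an aggrecan- and versican-cutting enzyme; ENSMUSG00000006403, chromosome 1, 171250421 to 171260637) was low, at 1.28 and 0.227 TPM at steady state, 3.22 and 0.533 TPM after DSS, 5.15 and 16.7 TPM in non-polyp colon, and 10.8 and 14.1 TPM in polyps. It was the one gene of the 10 whose 4 levels at day 112 all lay above its 4 earlier ones. Whether counting used strand is not stated in the sources used here, so reads from the opposite strand cannot be told apart from its own. The summed level of 8 fibroblast markers was 797 and 1085 TPM at steady state, 875 and 566 TPM after DSS, 748 and 565 TPM in non-polyp colon, and 496 and 520 TPM in polyps. Mmp13, Mmp14 and Adamts4 were highest in the polyps and knockout non-polyp. The fibroblast sum was lowest in the polyps, and knockout non-polyp was level with knockout DSS. Dcn made up most of the sum, and the markers did not move as one. In wild-type polyp minus non-polyp 7 of the 8 markers were lower and 1 higher. In knockout minus wild-type non-polyp 6 were lower and 2 higher. Per summed fibroblast markers, Mmp13 was 0.00321 to 0.00962 in 5 libraries and 0.136 to 0.201 in the polyps and knockout non-polyp.

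Timp1 (ENSMUSG00000001131, chromosome X, 20870166 to 20874735) stood at 5.0 and 6.48 TPM at steady state, 17.1 and 4.68 TPM after DSS, 8.14 and 53.3 TPM in non-polyp colon, and 44.0 and 41.7 TPM in polyps. Outside the polyps and knockout non-polyp, Timp1 was highest in wild-type DSS, as were the proteases other than Mmp2, Mmp12 and Adamts4. Wild-type non-polyp came next for Timp1 but was the lowest library for the sum of the 9 proteases. Timp1 lies wholly within the span of Syn1 on the opposite strand, which did not exceed 2.87 TPM in any library. The summed level of the 9 proteases per unit of Timp1 lay between 22.9 and 68.4 in the 8 libraries, highest in the 2 steady-state libraries (62.0 and 68.4) and lowest in the 2 non-polyp libraries (22.9 and 23.0). Without Mmp7 the other 8 proteases per unit of Timp1 were again highest at steady state (33.6 and 31.5), but lowest in wild-type DSS (13.7), with wild-type non-polyp at 21.8 and knockout non-polyp at 15.5.

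Summed over the 9 proteases, the level was 310 and 443 TPM at steady state, 508 and 246 TPM after DSS, 186 and 1225 TPM in non-polyp colon, and 1388 and 1300 TPM in polyps, wild type first. Myeloid proteases made up 0.567% to 1.59% of the sum outside the polyps and knockout non-polyp and 3.51% to 4.14% in those. Epithelial proteases made up 46.4% to 57.4% at steady state and after DSS, 7.06% in wild-type non-polyp and 50.2% to 59.3% in knockout non-polyp and the polyps. Mmp7 was the larger part of the epithelial share in all 8 libraries, at 45.8% to 54.0% of the sum at steady state and after DSS and at 32.7% to 39.5% in the polyps and knockout non-polyp. Mmp10 gave 0.606% to 3.45% of the sum at steady state and after DSS, and 17.5% to 20.3% in the polyps and knockout non-polyp.

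**Figure D3:**
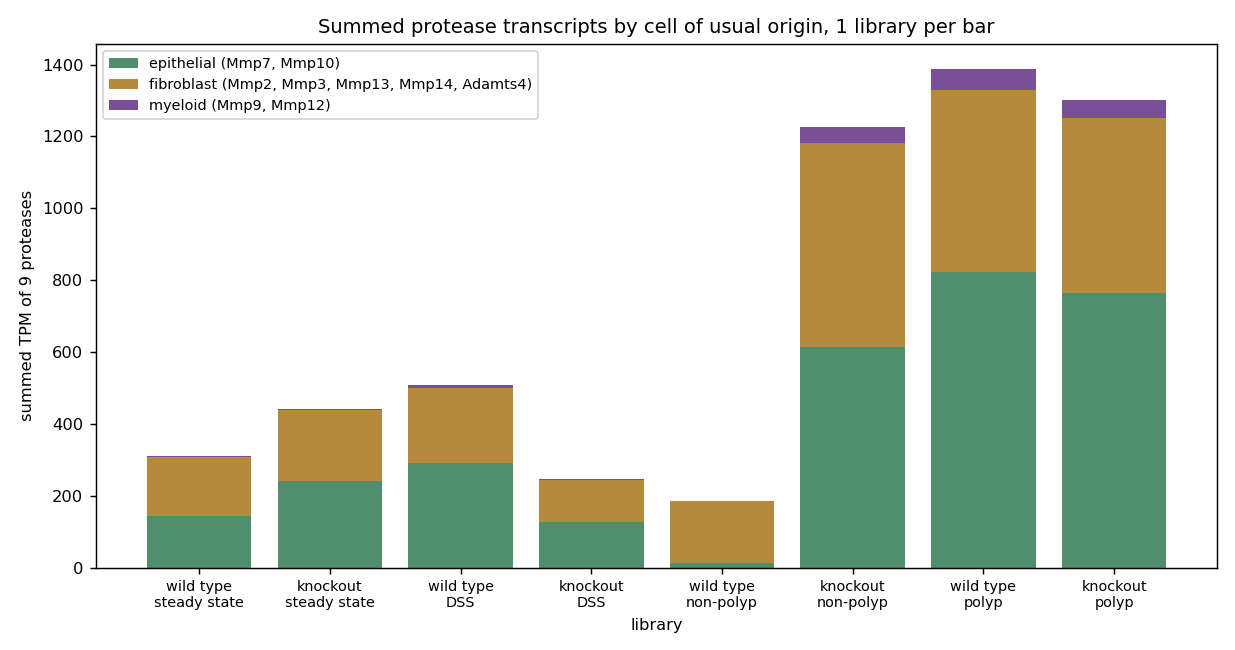
Summed TPM of the 9 proteases in each library, stacked by the cell type that usually makes them, 1 library per bar and no error bars. The 2 polyp bars (1388 and 1300 TPM) and knockout non-polyp (1225 TPM) stand above the other 5, which lie between 186 and 508 TPM.

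The genotype comparison asks whether loss of DCIR changes these genes at each stage. After DSS all 10 genes were lower in the knockout library than in the wild-type one, and 6 were lower by at least 2-fold (Mmp10, Mmp9, Timp1, Mmp3, Adamts4 and Mmp7), where 2.8% of the 16855 genes with a mean of at least 1 TPM were. The log2 differences of TPM + 1, knockout minus wild type, were -2.47 for Mmp10, -2.04 for Mmp9, -1.67 for Timp1, -1.52 for Mmp3, -1.46 for Adamts4, -1.14 for Mmp7, -0.85 for Mmp13, -0.82 for Mmp2, -0.63 for Mmp14 and -0.25 for Mmp12. Their median was -1.30, against -0.05 over all genes. This pair is 1 library against 1 library and has no test. The neutrophil marker sum was 236 TPM in the wild-type library and 5.92 TPM in the knockout one, and the fibroblast sum was 875 against 566 TPM, and the part of these in the lower levels was not tested. The 10 gland markers went both ways in this pair, 5 higher and 5 lower in the knockout with a median log2 difference of 2.60, while their sum, set mostly by Pbsn and Tgm4, was 6716 TPM in wild type and 4148 TPM in the knockout.

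At steady state none of the 10 differed by 2-fold between genotypes on the log2(TPM + 1) scale, where 4.77% of all genes did, although in TPM itself the low genes Adamts4 (5.65-fold lower in the knockout) and Mmp12 (2.12-fold higher) did. With a pseudocount of 0.1 the count was 1. On the log2(TPM + 1) scale the differences ran from -0.90 for Adamts4 to 0.75 for Mmp7, with a median of 0.30 against 0.09 over all genes. The gland sum was 6145 TPM in the knockout and 3712 TPM in the wild-type library of that pair. In polyps none of the 10 differed by 2-fold either, where 5.92% of all genes did. The differences there ran from -0.83 for Mmp3 to 0.36 for Adamts4, and Mmp14 differed by 0.00. Mmp13 differed by 0.03 and Mmp12 by 0.15, and both signs turned with median-of-ratios scaling, to -0.15 and -0.02. With 1 library each, these values do not show that the genotypes were alike.

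In non-polyp colon all 10 were higher in the knockout, 9 of them by at least 2-fold, where 14.7% of all genes were. The differences were 5.36 for Mmp7, 5.32 for Mmp10, 4.29 for Mmp13, 3.60 for Mmp9, 2.62 for Mmp12, 2.57 for Timp1, 2.03 for Mmp14, 1.52 for Adamts4, 1.07 for Mmp3 and 0.43 for Mmp2, with a median of 2.60 against 0.21 over all genes. For 6 of the 10 (Mmp7, Mmp10, Mmp9, Timp1, Adamts4 and Mmp3) the knockout library was thus at least 2-fold higher here and at least 2-fold lower after DSS, as it was for 1.06% of all genes. This is the pair in which the knockout library carried polyp-like levels of WNT target genes and smooth muscle markers. Set beside the wild-type polyp instead, a pair added after the values were seen, knockout non-polyp differed by 2-fold in none of the 10, where 6.41% of all genes did, and the differences ran from -0.50 for Mmp9 to 0.59 for Adamts4.

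**Figure D4:**
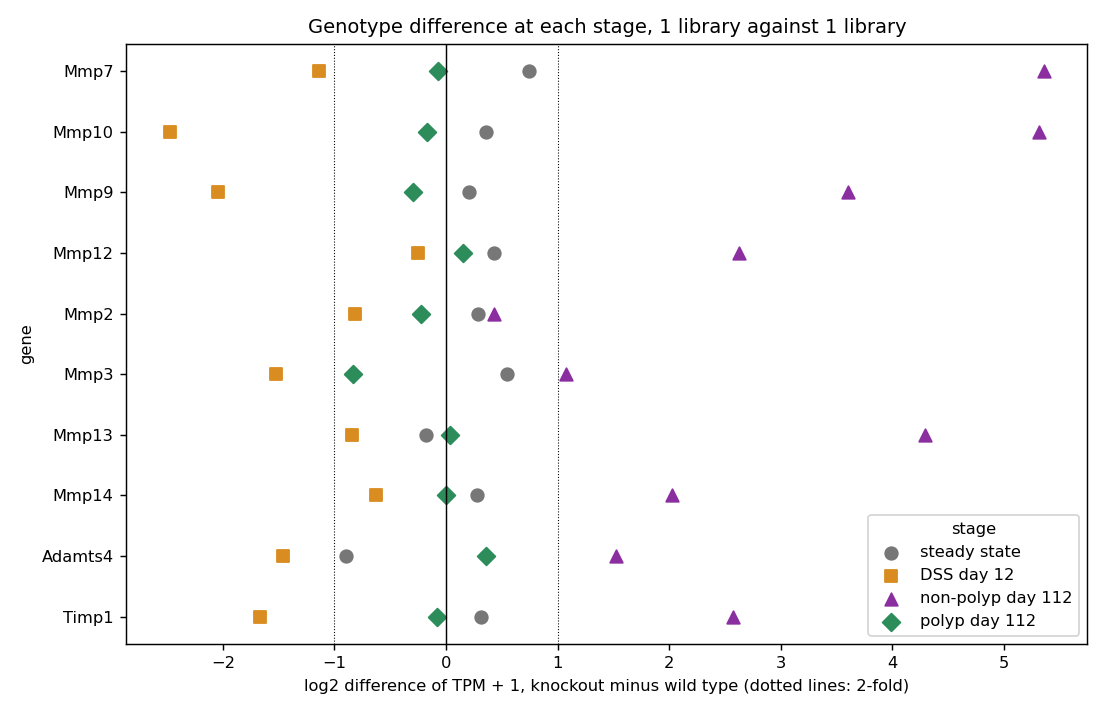
Log2 difference of TPM + 1, knockout minus wild type, for each gene at each stage, 1 library against 1 library and so without error bars; dotted lines mark 2-fold. The DSS points all lie left of 0 and the non-polyp points all right of it, while steady-state and polyp points lie between the dotted lines.

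A limma fit of genotype and stage to all 8 libraries was the only test of genotype the design allows. It assumes the same genotype difference at every stage. Differences of opposite sign, as after DSS and in non-polyp colon, offset each other in it and widen its errors. It therefore cannot decide whether genotype matters at a given stage. The fit called none of the 10 and none of 16855 genes at an adjusted p under 0.05 (0.0%). At an unadjusted p under 0.05 there were 736 genes (4.37%) and none of the 10. The fitted genotype differences ran from below their errors to somewhat above them. Mmp9 had 0.37 ± 0.86 (SE, limma adjusted p = 0.873), Mmp7 1.22 ± 1.02 (limma adjusted p = 0.708) and Mmp12 0.74 ± 0.50 (limma adjusted p = 0.705). The fitted genotype differences rested on the non-polyp pair: without both non-polyp libraries the fitted genotype difference was -0.15 for Mmp7, -0.76 for Mmp10, -0.71 for Mmp9, -0.33 for Mmp13, -0.12 for Mmp14 and -0.48 for Timp1, each of the opposite sign to the fit with 8 libraries.

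Acute colitis was compared with steady state within each genotype. In wild type all 10 were higher after DSS, and Mmp10 (log2 difference 2.68), Mmp3 (2.03), Timp1 (1.59) and Mmp9 (1.44) were higher by at least 2-fold, as were 2.73% of all genes. In the knockout 8 of the 10 were lower after DSS, with a median of -0.47 against -0.20 over all genes, and 1, Mmp2 (-1.02), was lower by 2-fold on the log2(TPM + 1) scale, as were 7.42% of all genes. In TPM itself Mmp12 (2.87-fold) and Mmp9 (2.46-fold) were also lower by more than 2-fold, and a pseudocount of 0.1 gave 3 genes. With median-of-ratios scaling 6 of the 10 were lower there and none by 2-fold, since Mmp10 stood at 0.02 and Mmp3 at 0.17. Mmp10 differed by -0.14, Mmp3 by -0.03, Timp1 by -0.40 and Mmp9 by -0.81 there. The neutrophil marker sum went from 5.01 to 236 TPM in wild type and from 6.85 to 5.92 TPM in the knockout. The difference between the genotypes in this response was not tested, since each cell of the design is 1 library. The limma fit of DSS minus steady state called none of the 10 and no gene at all (0.0%), with 904 genes (5.36%) and none of the 10 at an unadjusted p under 0.05. Mmp3 had the lowest p of the 10 there, at 1.00 ± 0.64 (SE; limma adjusted p = 0.879).

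Polyps were compared with non-polyp colon of the same genotype. In wild type all 10 were higher in the polyp and 8 by at least 2-fold, where 9.14% of all genes were. The log2 differences were 5.80 for Mmp7, 5.71 for Mmp10, 4.67 for Mmp13, 4.11 for Mmp9, 2.55 for Mmp12, 2.30 for Timp1, 1.65 for Mmp14, 1.53 for Mmp3, 0.94 for Adamts4 and 0.43 for Mmp2. In the knockout none of the 10 differed by 2-fold, where 2.87% of all genes did, and 5 were higher and 5 lower. With all 8 libraries, limma called no gene in polyp minus non-polyp (0.0%), and 496 genes (2.94%) and none of the 10 had an unadjusted p under 0.05. The fitted difference was 3.08 ± 1.45 (SE) for Mmp7, 2.54 ± 1.20 for Mmp13 and 2.96 ± 1.66 for Mmp10, each with a limma adjusted p of 0.858.

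The same fit without the knockout non-polyp library called 6 of the 10 as higher in polyps, where 4.35% of all genes were called higher (1529 genes in both directions together). The 6 were Mmp7 (5.83 ± 0.54 SE, limma adjusted p = 0.00756), Mmp13 (4.85 ± 0.36, adjusted p = 0.00682), Mmp10 (6.01 ± 0.85, adjusted p = 0.0186), Mmp12 (2.57 ± 0.38, adjusted p = 0.0200), Mmp9 (4.31 ± 0.71, adjusted p = 0.0261) and Mmp14 (1.71 ± 0.30, adjusted p = 0.0311). Timp1 had 2.50 ± 0.63 (limma adjusted p = 0.0684), Adamts4 1.45 ± 0.60 (adjusted p = 0.192), Mmp3 1.42 ± 0.64 (adjusted p = 0.221) and Mmp2 0.45 ± 0.35 (adjusted p = 0.459). That fit was added after the values were seen, it removes the library that stood apart, and the lone wild-type non-polyp library is assumed in it to vary like the other groups. Without the wild-type non-polyp library instead, no gene (0.0%) and none of the 10 was called, and the difference was 0.32 ± 0.54 for Mmp7 (limma adjusted p = 1.00).

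**Figure D5:**
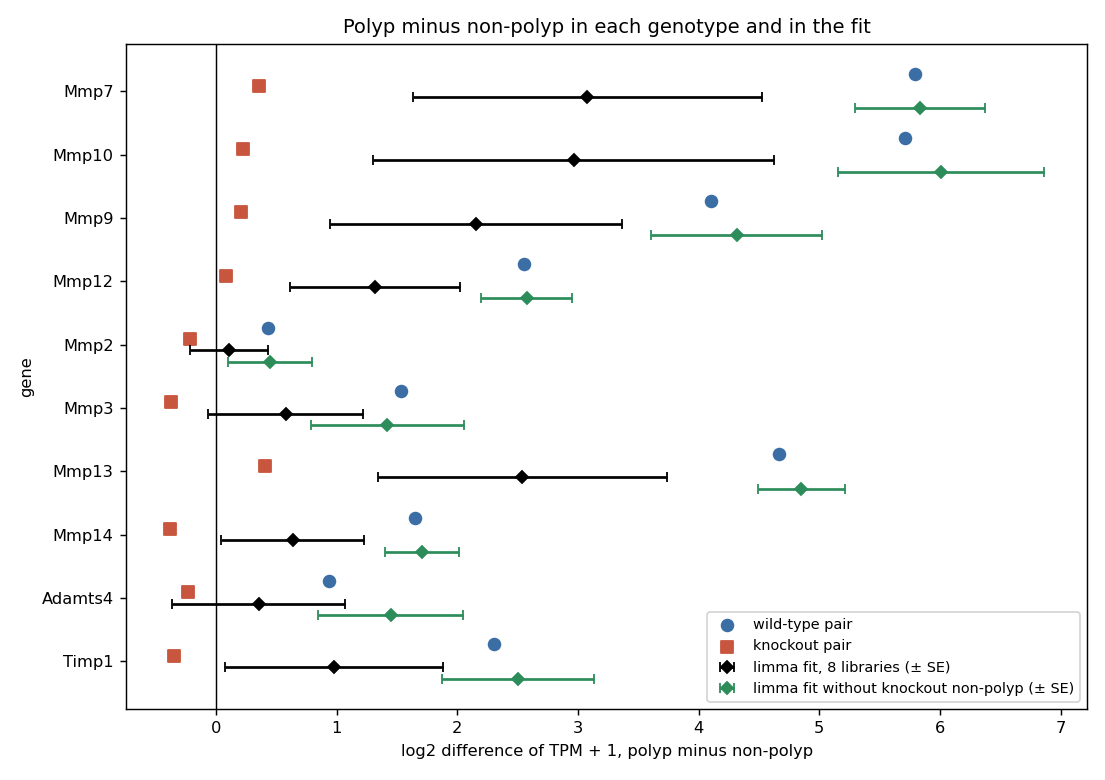
Log2 difference of TPM + 1, polyp minus non-polyp, for each gene: the wild-type pair (blue circles), the knockout pair (red squares), the limma fit to 8 libraries (black, ± SE) and the limma fit without knockout non-polyp (green, ± SE). The wild-type pair reaches 5.80 for Mmp7 while all knockout-pair points lie between -0.38 and 0.41, and the 8-library fit lies between them with wide errors.

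Polyps were also compared with steady-state colon, a contrast that leaves both non-polyp libraries out of the means and was added after the values were seen. In the 8-library fit 8 of the 10 had an unadjusted p under 0.05 and were higher in polyps, where 12.0% of all genes were, and none passed at an adjusted p under 0.05, which 138 genes (0.819%) did. The 8 were all but Mmp7 and Mmp2, with differences from 1.85 ± 0.59 (SE) for Mmp14 (limma adjusted p = 0.111) to 6.35 ± 1.66 for Mmp10 (limma adjusted p = 0.0865). Adamts4 had the lowest p, at 2.99 ± 0.72 (limma adjusted p = 0.0785). Mmp7 had 1.51 ± 1.45 (limma adjusted p = 0.505) and Mmp2 had -0.21 ± 0.32 (limma adjusted p = 0.685). Leaving out either steady-state library, of which the knockout one retained Clec4a2, reduced the 138 genes to 9, and without the knockout one (0.0534%) none of the 10 was among them.

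Without both non-polyp libraries, 9 of the 10 passed as higher in polyps than at steady state, all but Mmp2, where 10.4% of all genes passed as higher. Mmp13 had 4.42 ± 0.27 (SE, limma adjusted p = 0.00153), Mmp10 6.35 ± 0.66 (adjusted p = 0.00399) and Mmp12 2.49 ± 0.29 (adjusted p = 0.00522). Mmp7 had 1.51 ± 0.42 (limma adjusted p = 0.0489), and gland markers were high at steady state and near 0 in polyps. Polyp and steady-state libraries also differ in sex, day and treatment, which cannot be told apart here. The differences without the non-polyp libraries were those of the 8-library fit, where the errors were 1.20 for Mmp13, 1.66 for Mmp10 and 1.45 for Mmp7. Only the errors were smaller, since the non-polyp pair, whose genotype differences widen them, was left out. The contrast was itself added after the values were seen, so these p values are no separate support. As levels, both polyp libraries exceeded all 4 steady-state and DSS libraries in 8 of the 10, where 25.1% of all genes did: the lower polyp level was 14.3-fold the highest of those 4 for Mmp10, 11.8-fold for Mmp13, 8.37-fold for Mmp12, 5.37-fold for Mmp9, 3.34-fold for Adamts4, 3.14-fold for Mmp14, 2.44-fold for Timp1 and 1.87-fold for Mmp7.

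Non-polyp colon of day 112 was compared with steady state as well. These stages also differ in sex, day and treatment, which cannot be told apart here. In wild type Mmp7 was lower (log2 difference -3.87) and Mmp3 and Adamts4 were higher by at least 2-fold, where 12.4% of all genes differed by 2-fold in either direction. The gland marker sum was 3712 TPM in wild type at steady state and 1.36 TPM in wild-type non-polyp, and its part in the Mmp7 difference was not tested. In the knockout 8 of the 10 were higher by at least 2-fold, where 9.53% of all genes were. The 8-library fit called none of the 10, against 55 genes (0.326%), and 1 of the 10 had an unadjusted p under 0.05, where 16.5% of all genes did. That gene was Adamts4, at 2.64 ± 0.72 (SE; limma adjusted p = 0.183). Without wild-type non-polyp, 7 of the 10 passed as higher (Mmp9, Mmp10, Mmp12, Mmp13, Mmp14, Adamts4 and Timp1, with limma adjusted p from 0.00612 to 0.0294), where 5.34% of all genes did. The non-polyp group of that fit, chosen after the values were seen, is the knockout library alone, which stood with the polyps in its markers and is assumed to vary like the other groups.

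Other genes of the metalloproteinase system were read beside these 10. Of 15 other matrix metalloproteinases, 7 reached a mean of 1 TPM, and none passed in any contrast of the 8-library fit. In wild-type polyp minus non-polyp their median log2 difference was -0.07, against 2.43 for the 10 genes and 0.06 for all genes. Mmp15, a membrane-type epithelial enzyme and the most abundant of these, ran from 43.2 to 90.2 TPM. Mmp19, a soluble enzyme, ran from 8.43 to 23.8 TPM. Mmp17, another membrane-type enzyme, was at 5.04 TPM in wild-type non-polyp and at 0.751 to 1.11 TPM in the polyps and knockout non-polyp. Mmp11 (stromelysin-3, a stromal enzyme) stood at 7.95 TPM in wild-type non-polyp and 16.3 TPM in the wild-type polyp. Mmp28 and Mmp23 had the largest genotype differences of this list after DSS, at -0.77 and -0.63.

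Of 5 other inhibitors 4 were measured, and none was higher in the wild-type polyp than in wild-type non-polyp, where Timp1 was higher. The log2 differences were -0.24 for Timp2, -0.99 for Timp3, -0.02 for Timp4 and -2.14 for Reck. Timp3 stood at 57.0 TPM in wild-type non-polyp, 28.3 TPM in the wild-type polyp, 59.5 TPM in the knockout polyp and 98.4 TPM in knockout non-polyp. Reck, a membrane-anchored inhibitor, stood at 8.13 TPM in wild-type non-polyp, 1.07 and 1.45 TPM in the polyps and 1.05 TPM in knockout non-polyp. Timp2, which also helps Mmp14 to activate Mmp2, ran from 80.8 to 163 TPM and was therefore above Timp1 in every library. In polyp minus steady state all 4 had an unadjusted p under 0.05 in the lower direction, where 18.5% of all genes did, and none passed (limma adjusted p from 0.0613 to 0.124). The sum of 8 smooth muscle markers was also lower in the polyps (756 and 469 TPM) than at steady state (6203 and 6894 TPM), and its part in these levels was not tested.

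Of 18 other Adamts genes, 11 were measured and none passed in the 8-library fit. Adamts17 was low and high in the same libraries of day 112 as Mmp10 and Mmp13, at 0.253 TPM in wild-type non-polyp, 8.57 and 8.27 TPM in polyps and 10.5 TPM in knockout non-polyp, and in the DSS pair at 1.53 and 0.158 TPM. After DSS, Adamts7 was at 2.90 TPM in the wild-type library and 0.905 TPM in the other. Adamts8 went the other way, at 4.45 TPM in wild-type non-polyp and 0.207 to 0.354 TPM in the polyps and knockout non-polyp. Adamts1 was highest in knockout non-polyp (40.3 TPM), Adamts15 was highest at steady state (31.0 and 26.5 TPM), and Adamts10 ran from 4.86 to 15.2 TPM.

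The plasminogen system makes plasmin, which activates several metalloproteinase precursors. Of 8 genes 6 were measured, and in wild-type polyp minus non-polyp 4 were higher by at least 2-fold, where 9.14% of all genes were. Plat (tissue plasminogen activator) stood at 22.4 TPM in wild-type non-polyp, 230 TPM in the wild-type polyp and 235 TPM in the knockout polyp. Plau (urokinase) stood at 56.1, 138 and 205 TPM in the same 3 libraries, whereas Plgrkt, a plasminogen receptor, was lower in the wild-type polyp (65.6 TPM) than in non-polyp (120 TPM). After DSS all 6 were lower in the knockout, with a median of -0.53 against -0.05 over all genes, and Serpine2 by 2-fold (-1.08), as were 2.8% of all genes. None passed in the 8-library fit. Plat had 4.12 ± 0.92 (SE) in polyp minus steady state, with a limma adjusted p of 0.0718.

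Among 16 known inducers of these genes, of which 15 were measured, Jun, an AP-1 subunit, was the one that passed in the 8-library fit. It stood at 93.3 and 88.8 TPM at steady state, 101 and 104 TPM after DSS, 262 and 330 TPM in non-polyp colon, and 262 and 294 TPM in polyps, wild type first. Its difference was 1.68 ± 0.17 (SE, limma adjusted p = 0.0312) in non-polyp minus steady state and 1.60 ± 0.17 (adjusted p = 0.0340) in polyp minus steady state. In wild-type non-polyp, where Jun stood at 262 TPM, Mmp7, Mmp10 and Mmp13 were at 8.77, 4.40 and 2.96 TPM. In the wild-type polyp, where Jun also stood at 262 TPM, they were at 541, 282 and 99.7 TPM. These are single libraries, and the part of Jun in the levels of these genes was not tested. The Fos family partners of Jun did not share 1 order in the wild-type pair. Fosl1 stood at 1.59 TPM in wild-type non-polyp and 7.53 TPM in the wild-type polyp and Fosl2 at 43.3 and 67.8 TPM, whereas Fos stood at 338 and 91.9 TPM and Fosb at 12.2 and 7.63 TPM. In the knockout pair each was lower in the polyp. Knockout non-polyp and the knockout polyp had Fosl1 at 33.1 and 18.0 TPM and Fosl2 at 93.8 and 91.9 TPM. Fos stood there at 252 and 213 TPM and Fosb at 86.6 and 55.7 TPM. In the DSS pair Il1b was at 17.8 and 2.54 TPM and Il11 at 2.39 and 0.615 TPM, wild type first. Both were highest in knockout non-polyp, at 170.1 and 78.0 TPM. Il1a ran from 0.341 to 15.4 TPM and was highest in the knockout polyp. The abundant Bsg (a membrane inducer of metalloproteinases) and Jund ran from 723 to 1275 TPM and from 678 to 846 TPM, and Ets2, a transcription factor, ran from 94.5 to 360.2 TPM.

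Of 14 matrix substrates, 12 were measured and none passed in the 8-library fit. After DSS all 12 were lower in the knockout, with a median of -0.61 against -0.05 over all genes, and Col1a1 (-1.18) and Col3a1 (-1.02) by 2-fold, as were 2.8% of all genes. All 8 fibroblast markers were lower in the same pair (875 against 566 TPM in sum), and their part in these levels was not tested. In wild-type polyp minus non-polyp their median was 0.07, against 0.06 over all genes. Spp1 (osteopontin, cut by several of these enzymes) stood at 3.25 TPM in wild-type non-polyp and 78.0 TPM in the wild-type polyp. Col3a1, the most abundant of the list, went from 255 to 201 TPM in that pair, Fn1 from 135 to 114 TPM, and Col1a2 from 80.4 to 136 TPM.

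The genes whose log2 levels ran most like each of the 10 over the 8 libraries are given as a description, since all points share the same libraries and 16855 genes were searched. The first for Mmp7 was Gsdma (Pearson r = 0.985, n = 8), for Mmp10 Tmem102 (0.994), for Mmp9 Grhl3 (0.992), for Mmp12 Wif1 (0.998), for Mmp13 Prdx1 (0.998) and for Mmp14 Zfp703 (0.995). For Mmp3 it was Emc10 (0.981), for Adamts4 Snrpd1 (0.990), for Timp1 Arg1 (0.996) and for Mmp2 Rexo4 (0.954). Wif1, a secreted WNT antagonist and one of the WNT target genes above, ran from 2.09 to 626 TPM, and Apcdd1, a further one, was the second most like Mmp14 (r = 0.994). Saa3, an acute-phase protein, was among the 3 most like Mmp3 (r = 0.977), and Arg1, an enzyme of myeloid cells among others, ran from 0.271 to 155 TPM.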

How the data were processed

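Colon or polyp tissue was flash frozen, and total RNA was sequenced from NEBNext Ultra RNA libraries, per the labels' protocols. The authors deposited TPM, FPKM and coverage per gene, per the file headers. The deposited TPM column was used as a length-corrected level, and in 6 files it is a signal over annotated rows that sits beside loci assembled from the reads. StringTie and the build GRCm38 (mm10) are named in the submitters' processing notes, while its version, the aligner, the annotation release and strand use are not stated there or in other sources used here. Groups were read from the sample titles. Read counts were not given, so no counting interval was set, and depth was taken from coverage over FPKM.

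The annotated rows of a library summed to 895587 to 940132 TPM. TPM and FPKM kept 1 ratio per library within 0.1% for all 80 values of the 10 genes, and 10 other genes that broke it and 13 IDs with several rows were left out.

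Tests were limma 3.58.1 (R 4.3.3) on log2(TPM + 1) with an intensity trend, for the 16855 genes whose mean TPM reached 1, over genotype and stage in 8 libraries, with 3 residual degrees of freedom and Benjamini-Hochberg adjustment over all genes. With 1 library per group, the residual spread is how far the genotype difference varies between stages. Spread between animals was not measured, and nothing in the labels says whether each library is 1 animal. The design text counts 5 samples and 8 are listed. Library pairs have no test. The pseudocount makes log2 differences of low genes too small. The script was tested on simulated data. Alternatives were a pseudocount of 0.1, no filter, a filter at a mean TPM of 5, other scalings, no trend and leaving out libraries. The members and gene lists were chosen with earlier results of these data known. Named genes were the 10, the 3 most like each of the 10, and some genes of each list. From each list these were the 3 most abundant and the 2 with the largest differences in each of 2 pairs. Jun, Fos, Fosb, Fosl1 and Fosl2 fell outside this rule and were added after their values were seen. A few genes that the rule names are not reported here. Sequences came from RefSeq promoters of GRCm38.p6.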

Additional observations from a re-analysis of the deposited data

Results flagged for a closer look

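In 6 of the 10 genes the knockout library differed at least 2-fold from the wild-type one in opposite directions at 2 stages: it was lower after DSS and higher in non-polyp colon, as in 1.06% of all 16855 genes. Measured as the log2 difference in non-polyp colon minus that after DSS, the gap was 7.79 for Mmp10, 6.49 for Mmp7, 5.64 for Mmp9, 4.24 for Timp1, 2.98 for Adamts4 and 2.60 for Mmp3. With 1 library in each group the difference between the stages was not tested. It rests on 4 libraries, of which knockout non-polyp carried WNT target genes and smooth muscle markers at polyp-like levels, and wild-type DSS carried neutrophil markers at 236 TPM against 5.92 TPM in knockout DSS. For Mmp7, the 10 gland markers of the DSS pair split into 5 higher and 5 lower in the knockout, and their part was not tested.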

How the results depend on the processing

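No paired analysis was possible because each group holds 1 library. Single pairs have no error, so small differences between libraries cannot be told from the spread between mice. Median-of-ratios scaling brought the median of all genes from 0.10 to 0.00 in knockout minus wild type and from -0.12 to 0.01 in DSS minus steady state, and there it turned Mmp14 in DSS minus steady state to 0.045. It gave 1 of the 10 at least 2-fold apart between polyps, none in knockout DSS minus steady state and 2 at an unadjusted p under 0.05 in non-polyp minus steady state; scaling without gland markers also gave 0 in knockout DSS minus steady state. A pseudocount of 0.1 gave 1 of the 10 at least 2-fold apart between genotypes at steady state and 3 in knockout DSS minus steady state. For non-polyp minus steady state, limma called 13 genes with no filter, 35 without both DSS libraries (with 2 of the 10 at an unadjusted p under 0.05) and 15 without both polyps. For polyp minus steady state it called 15 genes with no filter, 72 with median-of-ratios scaling, 79 with no trend, 40 without both DSS libraries and 4337 without both non-polyp libraries. Without both steady-state libraries 1 gene was called for genotype.

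The fitted genotype differences of 9 of the 10, all but Mmp12, changed sign with the pair of libraries left out. Without both steady-state libraries Adamts4 had 0.14. Without both DSS libraries Adamts4 had 0.33, Mmp3 0.26 and Mmp2 0.16. Without both polyps Mmp3 had 0.032. Without both non-polyp libraries Mmp7 had -0.15, Mmp10 -0.76, Mmp9 -0.71, Mmp13 -0.33, Mmp14 -0.12 and Timp1 -0.48. The cause was not tested. Fewer libraries leave fewer residual degrees of freedom by construction.

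With 1 library left out at a time, the genes called ran from 0 to 1 for genotype, from 9 to 2238 for non-polyp minus steady state, from 0 to 1529 for polyp minus non-polyp and from 0 to 4340 for polyp minus steady state. Of the 10, those at an unadjusted p under 0.05 ran from 0 to 1 in DSS minus steady state, from 0 to 8 in non-polyp minus steady state, from 0 to 7 in polyp minus non-polyp and from 1 to 9 in polyp minus steady state. The highest counts of non-polyp and polyp contrasts came without a non-polyp library, and for polyp minus steady state the count was 0 without either polyp, 9 without either steady-state library, and 43 or 44 without a DSS library. The fitted difference of each gene whose sign turned is given as its lowest and highest value.
In knockout minus wild type it ran from -0.67 to 0.33 for Adamts4, from -0.25 to 0.16 for Mmp2, from -0.60 to 0.26 for Mmp3, from -0.15 to 2.01 for Mmp7, from -0.76 to 1.84 for Mmp10, from -0.71 to 1.17 for Mmp9, from -0.33 to 1.38 for Mmp13, from -0.12 to 0.77 for Mmp14, from -0.48 to 0.94 for Timp1. In DSS minus steady state it ran from -1.57 to 1.58 for Mmp7, from -0.56 to 1.67 for Mmp13, from -0.88 to 3.42 for Mmp10, from -1.29 to 1.92 for Mmp9, from -0.29 to 1.5 for Adamts4, from -0.71 to 1.90 for Timp1, from -0.87 to 0.45 for Mmp12, from -0.96 to 0.020 for Mmp2, from -0.80 to 0.60 for Mmp14. In non-polyp minus steady state it ran from -4.32 to 1.19 for Mmp7, from -0.65 to 0.025 for Mmp2, from -0.55 to 3.76 for Mmp9, from -0.086 to 2.43 for Mmp12, from -0.44 to 4.19 for Mmp13. In polyp minus non-polyp it ran from -0.077 to 6.01 for Mmp10, from -0.23 to 0.45 for Mmp2, from -0.26 to 1.42 for Mmp3, from -0.44 to 1.71 for Mmp14, from -0.74 to 1.45 for Adamts4, from -0.55 to 2.50 for Timp1. In polyp minus steady state it ran from -0.45 to 0.035 for Mmp2.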

Other observations

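In 6 files, 59 values of the 10 genes could also be read from loci assembled from the reads, and 36 of these equalled the annotated TPM within 0.1%. The other 23 were 0.981 to 5.73 times the annotated value, and the largest departures were in genes of low level. Mmp12 stood at 0.523 TPM as annotated and 3.00 TPM as assembled in wild-type non-polyp, and at 0.448 and 1.52 TPM in wild type at steady state. Adamts4 stood at 1.28 and 3.05 TPM in wild type at steady state. Mmp9 stood at 1.94 and 2.90 TPM in wild-type non-polyp, and Mmp13 at 2.96 and 4.40 TPM there. Each of these 5 assembled values remained below the level of the same gene in either polyp.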
